A study of Xenopus tropicalis with 12 samples.

Results

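The genes described here were high in the tadpole liver at the climax of metamorphosis (stage 61, st61) and lower in every other library of the study. A gene was taken when its mean at st61 was at least 5 CPM (counts of the gene per 1000000 counts of the library), when that mean was at least 2.5 times the mean of each of the other 3 groups, and when every st61 library lay above all 9 other libraries. Of 26529 genes in the table, 76 met these conditions. Their levels at st61 against the other groups chose them, so those values are given as a description and were not tested.

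RNA was sequenced from the liver of Xenopus tropicalis, the western clawed frog, in 12 libraries, with 3 in each of 4 groups. The T3 group was stage 54 tadpoles treated with 10 nM T3 (triiodothyronine, the active thyroid hormone) for 18 hours. The st54, st61 and st66 groups were untreated tadpoles at stage 54, before metamorphosis, at stage 61, its climax, and at stage 66, its end. All animals were wild type and had the same parents, and the labels call the libraries biological replicates from different tadpoles. The labels do not say whether livers of several tadpoles were pooled for a library.

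Metamorphosis of the tadpole is driven by thyroid hormone, whose blood level peaks at climax and falls again by its end. The hormone enters cells, binds nuclear receptors that sit on the DNA with partner receptors, and turns on a first set of genes, many of them transcription factors, which are followed by later genes. In the liver this goes with the change from larval to adult metabolism and blood proteins, while the tissue between the hepatocytes is rebuilt.

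Library totals were between 7928459 and 39536147 counts, with the st66 replicates 2 and 3 the shallowest. These 2 libraries also stood apart in composition: ribosomal protein genes held 16.5% and 16.8% of their counts, against 7.94% in st66 replicate 1. At st54 these genes held 12.9% in replicate 3, against 9.77% and 8.83% in replicates 1 and 2. Hepatocyte markers were present in every library: the 16 marker genes summed to 57199 to 61717 CPM in T3 livers, 63652 to 66792 CPM at st54, 84678 to 93752 CPM at st61 and 69519 to 80588 CPM at st66. The biological coefficient of variation within a group was 2.57% among the T3 libraries, against 33.7% at st54, 23.9% at st61 and 40.2% at st66. Fold changes below were scaled by edgeR's TMM factors, whereas CPM were scaled by the library total. Between these scalings the median log2 fold change of all 15102 genes tested was -0.05 against 0.26 for T3 over st54, 0.03 against -0.42 for st66 over T3, and 0.05 against -0.10 for st66 over st54.

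The 76 genes ranged widely in level. At st61, 17 had a mean of 100 CPM or more, 41 lay from 10 to under 100 CPM and 18 were under 10 CPM. Per kilobase of gene model, which allows levels of different genes to be compared, bhmt was the highest at 2287 CPM per kb at st61, followed by gnmt at 935 CPM per kb, LOC100487578 at 823 CPM per kb, slc27a2 at 374 CPM per kb and mfap4.1 at 239 CPM per kb. Together the 76 genes took 3508 to 3608 CPM in T3 livers, 1239 to 1332 CPM at st54, 14448 to 16327 CPM at st61 and 3811 to 6234 CPM at st66. Their median was 21.2% of the st61 mean in the T3 group, 16.6% at st54 and 26.8% at st66.

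**Figure D1:**
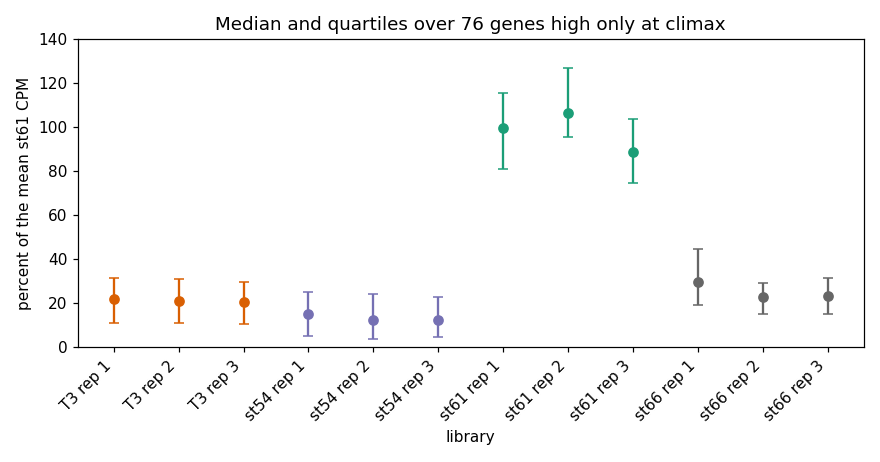
Median over the 76 genes (points) and lower and upper quartiles (bars) of each library's CPM as a percent of the mean st61 CPM, on a linear axis, with 3 libraries each for T3, st54, st61 and st66. The medians were between 20.5% and 22.0% in T3 livers, 12.2% and 15% at st54, 88.5% and 106% at st61, and 23.0% and 29.6% at st66.

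The ratio of the st61 mean to the highest of the other 3 means had a median of 3.28 over the members. It was 5 or more for 11 genes and under 3 for 30. At the threshold itself stood dio2 (2.51), LOC100487578 (2.51) and dact1 (2.53) just inside, and igsf3 (2.47), eppk1 (2.46) and cryl1 (2.45) just outside. Among the 10716 genes with a mean of at least 5 CPM at st61, every st61 library lay above the 9 others in 4.12%, and 0.709% met the whole rule. The other 3 groups, put through the same rule in place of st61, gave 296 genes for T3, 20 for st54 and 35 for st66. These counts are not read against each other. Scaling by the library total sets T3 higher than TMM scaling does. The T3 libraries also varied least among themselves (2.57%), which makes the condition of no overlap easier to meet.

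The st61 libraries differed among themselves more in these genes than in most. The highest st61 library was 1.68 times the lowest in the median member, against 1.3 times over all genes of at least 5 CPM, and in 52 members it was under 2 times. In 11 members it was 3 times or more, and 7 of those were highest in st61 replicate 1. The st66 libraries also differed: st66 replicate 1 was the highest library outside st61 for 33 of the 76 genes (43.4%), against 25% of all genes of at least 5 CPM at st61. Within st66 alone it was the highest library for 45 of the 76, while it was so in 72.5% of those genes. Leaving that library out, 116 genes met the rule in place of 76, and leaving out st61 replicate 3 gave 122. Within st54, replicate 3 was the highest library for 39 of the 76, against 43.0% of all genes of at least 5 CPM at st61.

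**Figure D2:**
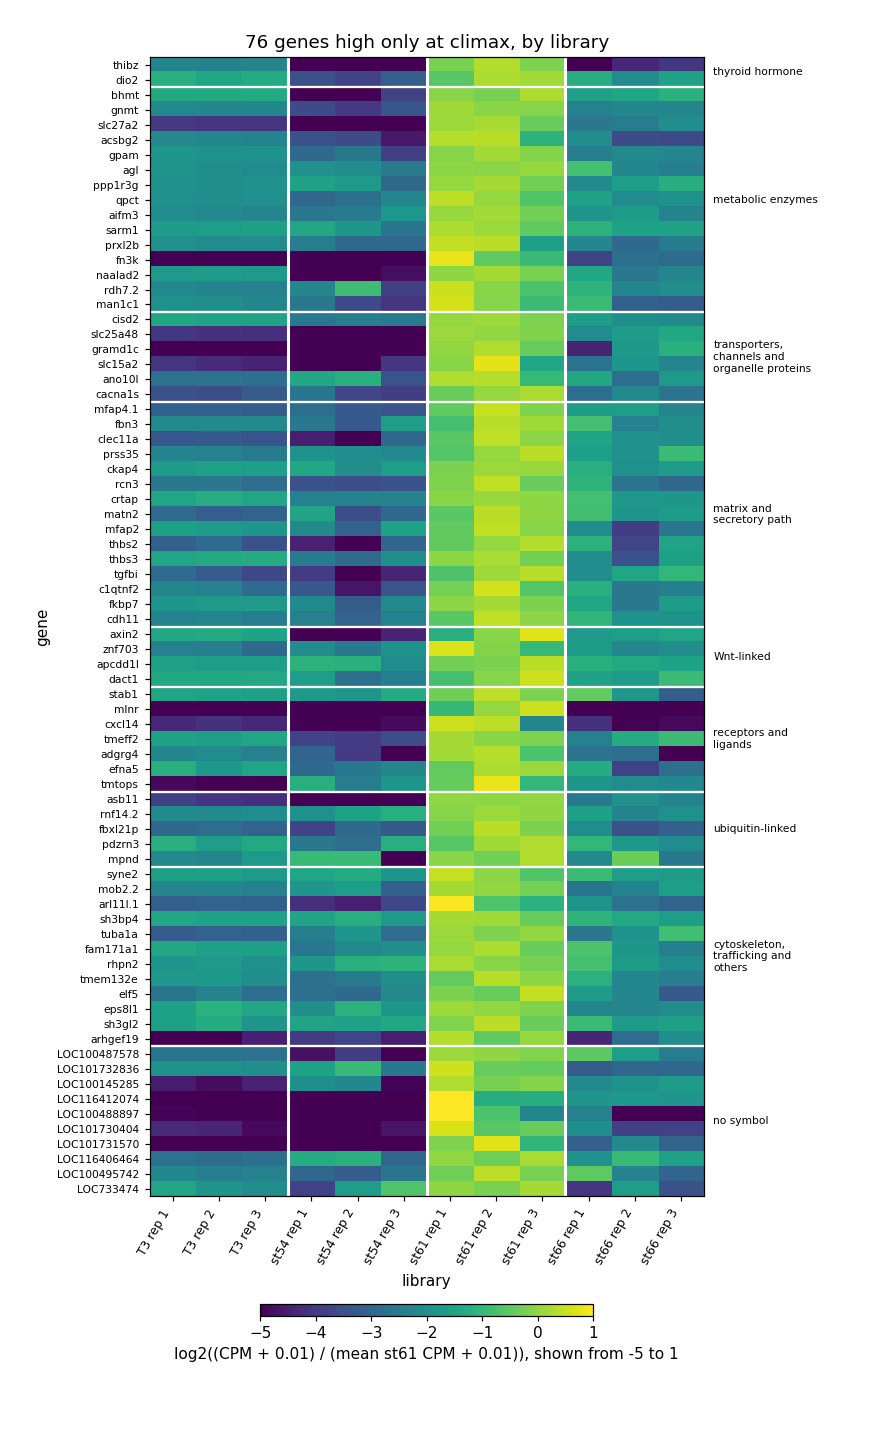
Each of the 76 genes (rows, grouped by role) in each of the 12 libraries (columns: T3, st54, st61, st66), as log2 of the CPM over the gene's mean st61 CPM with 0.01 added to both, cut at -5 and 1. All rows are brightest in the 3 st61 columns, as the rule requires, while the T3, st54 and st66 columns differ between rows; the asb11 and slc27a2 rows are darkest at st54 and the mlnr row is dark in all 9 libraries outside st61.

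The rule set no order among T3, st54 and st66, and tests of these groups across all 15102 genes asked whether the members differed between groups outside climax. The same libraries entered the rule, which capped each group's mean. The caps were on CPM by library total, whereas the tests used TMM scaling. Its factors were 1.19 to 1.25 for T3 and 1.14, 0.747 and 0.785 for st66 replicates 1, 2 and 3. On the tested scale the cap thus lay lower for T3 than for st66. The factors for st54 were 0.977 to 0.997. Against st54 the cap thus lay higher for st66 replicates 2 and 3 and lower for st66 replicate 1. No cap applied to all genes tested, so their shares are not a like comparison and are given as a description. A gene was called when edgeR's quasi-likelihood test gave a Benjamini-Hochberg adjusted p under 0.05 over all genes tested. At st66 over st54, 29 of the 76 genes were called higher, or 38.2%, against 8.23% of all genes tested, and 1 was called lower, against 5.48% of all genes. The median log2 fold change over the members was 0.94, against 0.05 over all genes. Since the caps of st66 and st54 differed on this scale, the excess of higher calls is not read as a trait of the members. Leaving out single libraries changed the count to between 23 (without st54 replicate 2) and 35 (without st54 replicate 3), and 22 of the 30 calls passed without each library in turn. Those lost without some library were arl11l.1, c1qtnf2, cdh11, LOC100495742, LOC101732836, qpct, slc15a2 and thbs2. With only the st66 and st54 libraries in the fit, 17 were called higher, against 2.09% of all genes tested in that fit.

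For T3 over st54, 13 of the 76 were called higher, or 17.1%, against 9.47% of all genes tested, and 5 lower, or 6.58%, against 7.55% of all genes. The 5 were LOC100145285, LOC116406464, rnf14.2, rhpn2 and tmtops. The median log2 fold change over the members was 0.29, against -0.05 over all genes. Those called higher were spread over the roles: thibz and dio2, the enzyme genes bhmt, gnmt, slc27a2 and naalad2, the carrier and organelle genes slc25a48 and cisd2, and asb11, axin2, crtap, tmeff2 and LOC100487578. Since the T3 libraries hardly differed, they were also summed to a single library, and then 2 of the 13, asb11 and naalad2, were called higher and none of the 5 lower (edgeR, with 0.394% of all genes called higher). Of the 18 calls, 10 passed without each library in turn, and those lost without some library were crtap, LOC100145285, LOC100487578, LOC116406464, rhpn2, rnf14.2, slc25a48 and tmeff2. Both T3 over st54 and st66 over st54 were set against the same st54 libraries. Whether the T3 libraries vary as separate animals would could not be checked. The T3 p-values and SDs of single genes given below carry this limit. Of the T3 over st54 calls below, only those of asb11 and naalad2 were kept with the T3 libraries summed.

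For st66 over T3, 30 of the 76 were called higher, or 39.5%, against 17.1% of all genes tested. The median log2 fold change over the members was 0.74, against 0.03 over all genes. Since the rule capped T3 lower than st66 on this scale, the excess of higher calls is not read as a trait of the members. In edgeR 0 were called lower, against 11.6% of all genes, with 1 member lower before adjustment (p under 0.05), and DESeq2 likewise called 0. The 1 before adjustment was thibz, at 0.307-fold for st66 over T3 (edgeR adjusted p = 0.0902). One of the 30, mlnr, passed the filter on low counts only through its st61 libraries; over the 75 others the count was 29. Without T3 replicate 1, 2 or 3 the count of higher calls was 15, 18 and 17, while the share over all genes fell to 8.51%, 8.74% and 9.03%. With the T3 libraries summed it was 1, fn3k, against 0.699% of all genes. Of the 30 calls, 14 passed without each library in turn, among them asb11, fn3k, gramd1c, matn2, mfap4.1, prss35, slc25a48, tgfbi, tmtops and tuba1a. The 16 lost without some library were agl, arhgef19, cacna1s, cdh11, clec11a, mlnr, rcn3, rhpn2, rnf14.2, sh3bp4, slc15a2, slc27a2, thbs2, LOC100495742, LOC101730404 and LOC116406464.

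**Figure D3:**
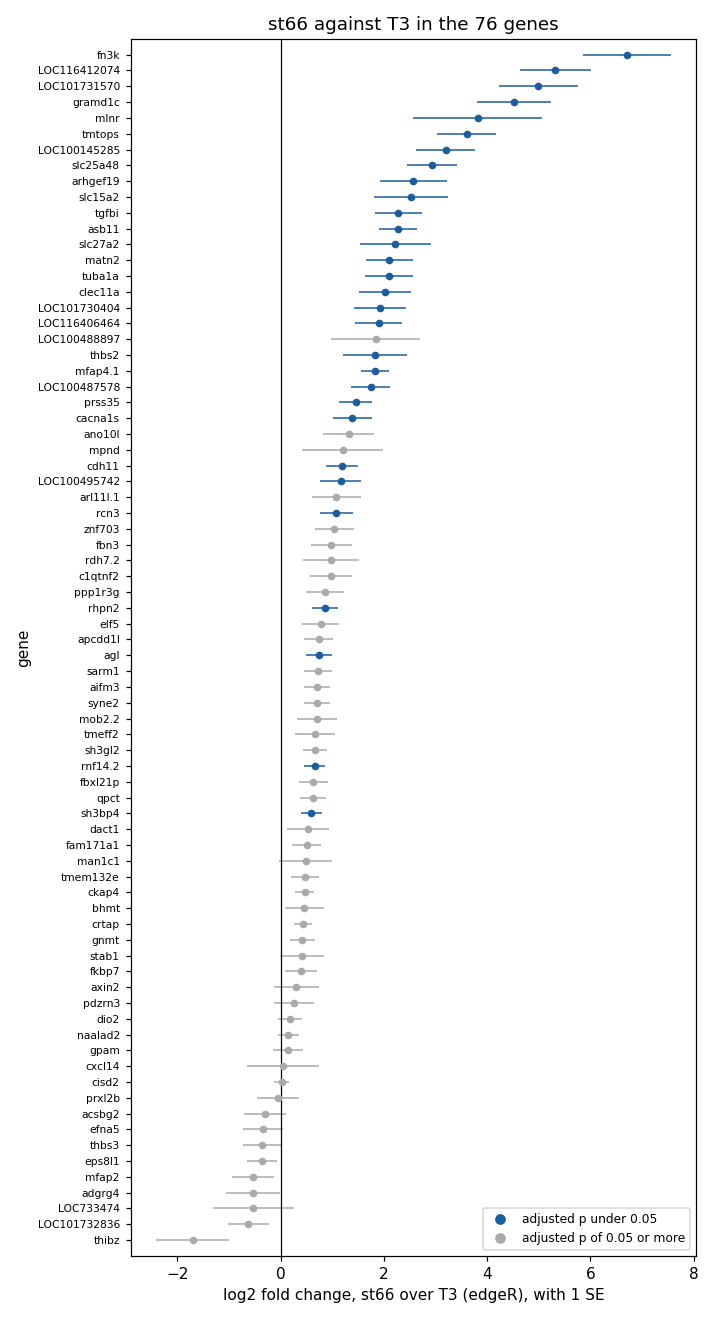
log2 fold change of st66 over T3 from edgeR (points, with 1 SE as bars) for each of the 76 genes, ordered by size, with genes of adjusted p under 0.05 in blue and the others in grey. The 30 blue points are all right of 0, where st66 is higher, fn3k is farthest right, and thibz at -1.70 is farthest left.

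Of the genes that act on or answer thyroid hormone, thibz and dio2 were members. The gene thibz encodes a leucine zipper transcription factor named for its induction by thyroid hormone in frogs, and dio2 encodes the deiodinase that converts the prohormone thyroxine to T3 inside cells. The transcript of thibz stood at 73.0, 70.4 and 71.7 CPM in T3 livers, 0.129, 0.476 and 2.80 CPM at st54, 301, 429 and 311 CPM at st61, and 5.40, 17.5 and 21.4 CPM at st66. The 4 groups did not overlap, and their order from low to high was st54, st66, T3, st61. It rose 59.5-fold in T3 livers over st54 (log2 fold change 5.89 ± 0.88 SE, edgeR quasi-likelihood test, Benjamini-Hochberg adjusted p = 0.00242) and was 18.3-fold higher at st66 than at st54 (edgeR adjusted p = 0.00733).

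For dio2 the libraries held 8.85, 7.43 and 8.28 CPM in T3 livers, 1.80, 1.46 and 2.24 CPM at st54, 13.9, 24.5 and 23.2 CPM at st61, and 8.58, 4.79 and 7.05 CPM at st66. T3 and st66 overlapped and both lay above st54. The gene rose 3.67-fold in T3 livers over st54 (edgeR adjusted p = 0.00116) and 4.17-fold at st66 over st54 (edgeR adjusted p = 0.000374), while st66 over T3 was 1.14-fold and did not pass (edgeR adjusted p = 0.584). Of the wider list of 33 tested genes of thyroid hormone signalling and response, 13 were called higher and 3 lower in T3 over st54, and 14 higher and 2 lower at st61 over st54. The list includes thibz and dio2, which the rule chose in part for being higher at st61 than at st54. Of all genes tested, 9.47% were called higher and 7.55% lower in T3 over st54, and 10% and 8.85% at st61 over st54. The receptor gene thrb, which did not meet the rule, averaged 29.6 ± 0.692 CPM in T3 livers, 1.01 ± 0.543 CPM at st54, 18.6 ± 1.42 CPM at st61 and 13.4 ± 2.72 CPM at st66 (SD, n = 3 each), so its highest mean was in T3 livers and not at st61. The regulator klf9 likewise averaged 45.7 ± 2.03 CPM in T3 livers, 7.77 ± 1.88 CPM at st54, 29.5 ± 3.46 CPM at st61 and 17.8 ± 7.81 CPM at st66 (SD, n = 3 each).

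**Figure D4:**
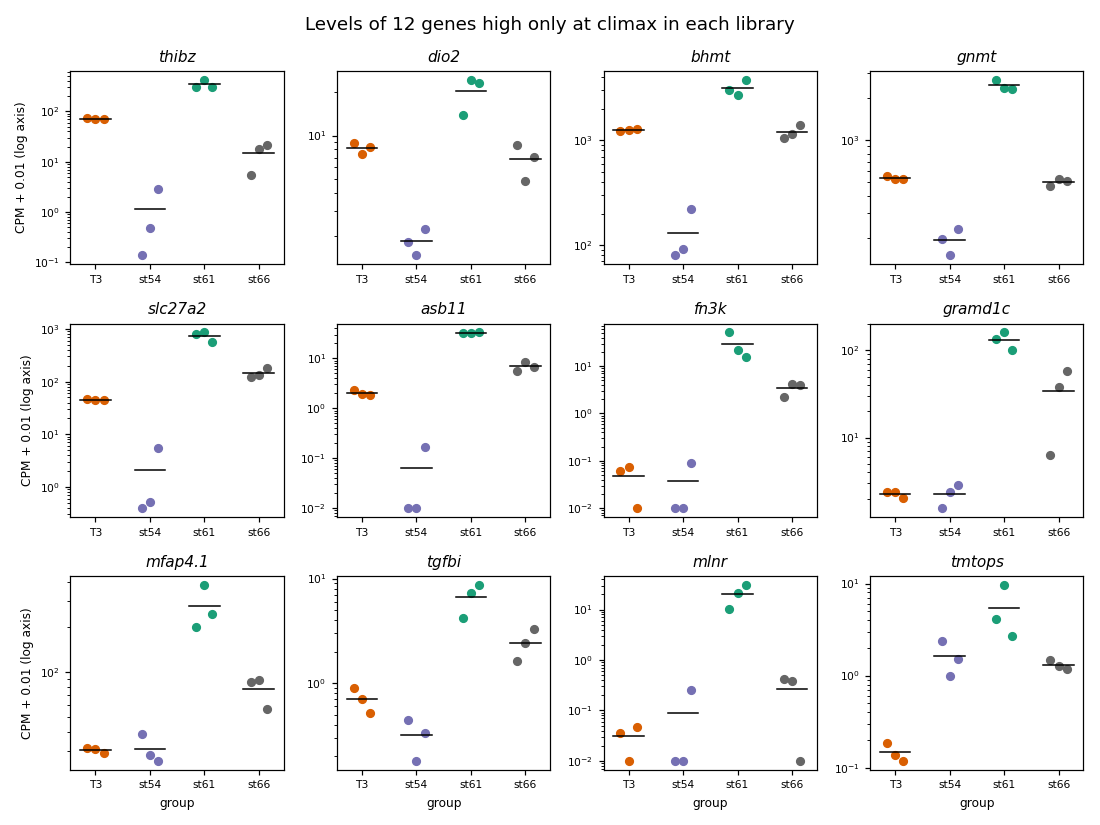
CPM in each library (points, 0.01 added, log axes that differ between panels) and group means (lines) of 12 of the 76 genes in T3, st54, st61 and st66, with 3 libraries each. In bhmt, gnmt and dio2 the T3 and st66 points stand at similar heights above st54, in fn3k, gramd1c and mfap4.1 the T3 points stand with st54 and below st66, and in tmtops the T3 points are the lowest.

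Metabolic enzymes were 15 of the 76, and 2 of them, bhmt and gnmt, belong to methionine metabolism. The enzyme encoded by bhmt returns homocysteine to methionine with a methyl group from betaine, and gnmt uses S-adenosylmethionine to methylate glycine. On chromosome 1 (185878152 to 185887640, plus strand), bhmt had 1237, 1246 and 1273 CPM in T3 livers, 80.1, 91.7 and 223 CPM at st54, 3030, 2716 and 3799 CPM at st61, and 1059, 1150 and 1405 CPM at st66. T3 and st66 overlapped, and each of their libraries was above each st54 library. The gene rose 7.71-fold in T3 livers over st54 (edgeR adjusted p = 0.00156) and 10.6-fold at st66 over st54 (edgeR adjusted p = 0.000366). For gnmt, on chromosome 5, the values were 551, 528 and 530 CPM in T3 livers, 199, 151 and 232 CPM at st54, 2682, 2349 and 2299 CPM at st61, and 473, 532 and 508 CPM at st66. The T3 and st66 libraries of gnmt overlapped above st54. It rose 2.24-fold in T3 livers over st54 (edgeR adjusted p = 0.0106) and 3.01-fold at st66 over st54 (edgeR adjusted p = 0.00163). Beside bhmt, with 173 bases between the gene models, lies dmgdh, which encodes the mitochondrial enzyme that breaks down the dimethylglycine that bhmt makes. It is no member: dmgdh averaged 187 ± 4.92 CPM in T3 livers, 19.1 ± 10.8 CPM at st54, 197 ± 18.2 CPM at st61 and 66.1 ± 47.8 CPM at st66 (SD, n = 3 each), so its T3 and st61 means were close. The list of 56 tested genes of amino acid breakdown as a whole held 9 genes called higher and 18 called lower at st61 over st54. Over all genes tested, 10% were called higher and 8.85% lower in that comparison. Both bhmt and gnmt are on the list, and the rule chose them in part by that comparison.

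Enzymes of fatty acid and lipid handling followed. The gene slc27a2 encodes an acyl-CoA synthetase that activates very long fatty acids and bile acid precursors. It had 46.4, 43.9 and 43.9 CPM in T3 livers, 0.386, 0.510 and 5.45 CPM at st54, 812, 862 and 563 CPM at st61, and 122, 135 and 180 CPM at st66. No 2 groups overlapped, and the order from low to high was st54, T3, st66, st61. Its rise was 19.0-fold in T3 livers over st54 (edgeR adjusted p = 0.00665) and 88.6-fold at st66 over st54 (edgeR adjusted p = 0.000676). The acyl-CoA synthetase gene acsbg2 averaged 111 ± 4.55 CPM in T3 livers, 37.5 ± 13.5 CPM at st54, 529 ± 248 CPM at st61 and 70.7 ± 48.7 CPM at st66 (SD, n = 3 each), and neither T3 nor st66 passed against st54. For gpam, which encodes the first enzyme of glycerolipid synthesis, the means were 96.1 ± 4.23 CPM in T3 livers, 43.8 ± 17.9 CPM at st54, 358 ± 39.8 CPM at st61 and 74.1 ± 6.92 CPM at st66 (SD, n = 3 each), again without a call against st54. Outside st61, both genes had their highest mean CPM in T3 livers. Scaling by the library total sets T3 higher against st66 than TMM scaling does, so this order may differ under TMM.

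Glycogen and sugar-linked genes gave the widest contrast between fn3k and the rest. The glycogen debranching enzyme gene agl averaged 55.3 ± 3.58 CPM in T3 livers, 48.9 ± 9.84 CPM at st54, 219 ± 7.97 CPM at st61 and 71.5 ± 47.4 CPM at st66 (SD, n = 3 each), and ppp1r3g, whose product brings a phosphatase to glycogen, averaged 32.2 ± 0.881 CPM in T3 livers, 32.3 ± 13.9 CPM at st54, 126 ± 20.3 CPM at st61 and 40.4 ± 12.3 CPM at st66 (SD, n = 3 each). The kinase encoded by fn3k removes sugars bound to proteins. It had 0.0506, 0.0630 and 0 CPM in T3 livers, 0, 0 and 0.0801 CPM at st54, 51.8, 21.5 and 15.3 CPM at st61, and 2.17, 4.29 and 4.0 CPM at st66. Its st54 value rested on 1 read over 3 libraries and its T3 value on 4 reads, so the ratio of summed CPM was 75.8 for st66 over T3 (95% counting interval 28.8 to 283) and 199.6 for st66 over st54 (35.1 to 7954, exact, counting error only). Both differences passed (edgeR adjusted p = 0.000363 for st66 over T3 and 0.000879 for st66 over st54), and T3 over st54 did not (edgeR adjusted p = 0.784). The peptidase gene naalad2 had 7.82, 8.35 and 7.92 CPM in T3 livers, 0.515, 0.715 and 0.961 CPM at st54, 26.6, 30.6 and 23.1 CPM at st61, and 9.99, 4.41 and 5.53 CPM at st66. T3 lay inside the st66 range and st54 below both. It rose 9.15-fold in T3 livers over st54 (edgeR adjusted p = 4.5e-05) and 10.2-fold at st66 over st54 (edgeR adjusted p = 1.33e-05).

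The other enzyme genes were qpct, which makes the pyroglutamyl ends of peptides, rdh7.2, of the retinol dehydrogenase family, man1c1, a mannosidase of glycoprotein trimming, sarm1, which cleaves NAD, aifm3 and prxl2b. Their st61 means ran between 11.2 CPM for man1c1 and 95.8 CPM for qpct. Of these, qpct was called 1.94-fold higher at st66 than at st54 (edgeR adjusted p = 0.0315) and the others were not called in any of the 3 comparisons. The prxl2b transcript was at 43.0, 40.4 and 10.5 CPM at st61, so its replicate 3 stood near the T3 range of 7.23 to 8.04 CPM.

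Carriers, channels and organelle proteins made up 6 members. The gene slc25a48 encodes a mitochondrial carrier, reported in mammals to carry choline, from which betaine is made. It had 9.69, 8.98 and 8.64 CPM in T3 livers, 0.901, 1.12 and 4.49 CPM at st54, 170, 161 and 142 CPM at st61, and 37.3, 48.7 and 58.9 CPM at st66. No groups overlapped, and st66 was 7.67-fold above T3 (edgeR adjusted p = 0.00174) and 28-fold above st54 (edgeR adjusted p = 0.000221). The sterol transfer protein gene gramd1c showed 2.38, 2.36 and 2.02 CPM in T3 livers, 1.54, 2.38 and 2.88 CPM at st54, 135, 161 and 100 CPM at st61, and 6.26, 37.8 and 57.6 CPM at st66. T3 and st54 overlapped for gramd1c, st66 lay above both, and st66 replicate 1 was the lowest of its group. It was 18.8-fold higher at st66 than at st54 (edgeR adjusted p = 0.00279) and 22.9-fold higher than in T3 livers (edgeR adjusted p = 0.00138). The iron-sulfur protein gene cisd2, which acts at mitochondria and the endoplasmic reticulum, averaged 90.5 ± 3.97 CPM in T3 livers, 44.3 ± 2.28 CPM at st54, 253 ± 26.9 CPM at st61 and 66.5 ± 11.7 CPM at st66 (SD, n = 3 each), with calls of 1.66-fold for T3 over st54 (edgeR adjusted p = 0.0088) and 1.68-fold for st66 over st54 (edgeR adjusted p = 0.0059).

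The peptide transporter gene slc15a2 varied most within st61 in this group, at 41.0, 71.7 and 15.3 CPM, against 1.99 to 2.53 CPM in T3 livers, 0.238 to 2.56 CPM at st54 and 6.51 to 11.9 CPM at st66. Its st66 level was called 11.9-fold above st54 (edgeR adjusted p = 0.0133). The calcium channel subunit gene cacna1s, known from skeletal muscle, had 1.37, 1.29 and 1.59 CPM in T3 livers, 2.40, 1.16 and 1.04 CPM at st54, 12, 16 and 18.3 CPM at st61, and 2.17, 3.53 and 2.35 CPM at st66. Markers of skeletal and smooth muscle, of which 23 of 27 were in the table, summed to 103 to 111 CPM in T3 livers, 78.1 to 134 CPM at st54, 83.8 to 162 CPM at st61 and 50.1 to 571 CPM at st66, and the muscle regulators myod1 and myog were at 0 in all 12 libraries. The st61 range of these markers thus overlapped that of the other groups. By replicate the st61 sums were 162, 146 and 83.8 CPM, and the 571 CPM was in st66 replicate 3. The part of muscle in the cacna1s values was not tested. The last of the group, ano10l of the anoctamin family, was not called in any of the 3 comparisons.

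Matrix proteins and proteins of the secretory path were 15 members, as many as the enzymes. The highest of them per kilobase, mfap4.1, encodes a glycoprotein of microfibrils, the fibres that carry elastin. It had 31.3, 30.7 and 29.1 CPM in T3 livers, 38.5, 28 and 25.6 CPM at st54, 200, 380 and 245 CPM at st61, and 85.8, 88.8 and 56.9 CPM at st66. T3 and st54 overlapped and st66 lay above both, by 3.56-fold over T3 (edgeR adjusted p = 0.000781) and 2.85-fold over st54 (edgeR adjusted p = 0.00304). Its neighbour mfap4.2, 2.1 kb away and similar in name, averaged 696 ± 10.2 CPM in T3 livers, 424 ± 362 CPM at st54, 310 ± 36.9 CPM at st61 and 250.1 ± 61.1 CPM at st66 (SD, n = 3 each). Reads that fit both copies could be divided in ways not given in the sources used here, so the mfap4.1 values are uncertain to that extent.

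The gene tgfbi, whose product links collagens to cells, had 0.885, 0.693 and 0.506 CPM in T3 livers, 0.429, 0.170 and 0.320 CPM at st54, 4.22, 7.26 and 8.64 CPM at st61, and 1.62, 2.40 and 3.29 CPM at st66. No groups overlapped for tgfbi, which was 4.85-fold higher at st66 than in T3 livers (edgeR adjusted p = 0.00472) and 9.13-fold higher than at st54 (edgeR adjusted p = 0.00216). Thrombospondin 2, encoded by thbs2, averaged 0.951 ± 0.188 CPM in T3 livers, 0.499 ± 0.496 CPM at st54, 8.61 ± 2.19 CPM at st61 and 2.52 ± 1.69 CPM at st66 (SD, n = 3 each). The matrilin gene matn2 averaged 1.3 ± 0.138 CPM in T3 livers, 2.05 ± 1.59 CPM at st54, 10.9 ± 3.31 CPM at st61 and 4.18 ± 1.68 CPM at st66 (SD, n = 3 each) and was 4.32-fold higher at st66 than in T3 livers (edgeR adjusted p = 0.0062). The microfibril gene mfap2 was the exception, with its lowest mean at st66: 2.95 ± 0.259 CPM in T3 livers, 2.23 ± 1.12 CPM at st54, 9.65 ± 3.02 CPM at st61 and 1.49 ± 0.846 CPM at st66 (SD, n = 3 each), without a call.

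The remaining members of the group were the fibrillin gene fbn3, thbs3, the secreted lectin gene clec11a, c1qtnf2, the mesenchymal cadherin gene cdh11, the protease-like prss35, and crtap, rcn3, fkbp7 and ckap4, whose products act in the endoplasmic reticulum on collagen and other proteins on their way out. Their st61 means lay between 5.39 CPM for cdh11 and 36.4 CPM for fbn3. Over the 15 genes, 8 were called higher at st66 than in T3 livers, against 17.1% of all genes tested. The rule capped T3 lower than st66 on this scale, so this count is not read as a trait of the group. Of the 8, cdh11, clec11a, rcn3 and thbs2 were lost without some library. With the T3 libraries summed, fn3k was the only one of the 76 still called, and it is not of this group. For st66 over st54, 8 were called higher, against 8.23% of all genes. The caps of st66 and st54 differed too, so this count is likewise given as a description. In T3 livers over st54, 1 of the 15, crtap, was called higher (1.54-fold, edgeR adjusted p = 0.0294), against 9.47% of all genes. A count of 1 in 15 is near that share and is not read as a trait of the group. The crtap call was lost without some library. Of the list of 63 tested genes of collagens and other matrix genes, 44 were called higher at st61 over st54, 26 higher at st66 over st54 and 36 higher at st66 over T3, while T3 over st54 had 5 called higher and 3 lower. The shares of all genes called higher were 10%, 8.23% and 17.1% in the first 3 of these. For T3 over st54 they were 9.47% higher and 7.55% lower. Only 4 of the listed genes, thbs2, matn2, mfap2 and tgfbi, met the rule for the 76. That rule chose these 4 in part for being higher at st61 than at st54.

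Markers of stellate cells and fibroblasts and of the mesothelium had sums that were on average highest at st61 and next highest at st66, as did the matrix members. For both marker lists the st61 and st66 libraries overlapped. For the members the rule fixed in advance that st61 was highest and overlapped no other library, so the 2 are not compared in this. The 15 genes summed to 69.6 to 74.6 CPM in T3 livers, 51.3 to 74.1 CPM at st54, 347 to 617 CPM at st61 and 113 to 171 CPM at st66. Without mfap4.1, the uncertain gene that held a large share of these sums, the other members summed to 40.5 to 43.9 CPM in T3 livers, 23.3 to 41.3 CPM at st54, 147 to 238 CPM at st61 and 41.7 to 85.4 CPM at st66, so that st66 replicate 2 then lay inside the T3 range. Markers of stellate cells and fibroblasts, the matrix-making cells of the liver, of which 29 of 32 were in the table and none was at 0 in all libraries, summed to 615 to 665 CPM in T3 livers, 598 to 982 CPM at st54, 2462 to 4046 CPM at st61 and 1306 to 2587 CPM at st66. The sums of the 15 genes and of these markers were both highest in st61 replicate 2. That library was the highest of st61 in 44.8% of all genes of at least 5 CPM at st61. The lowest st61 library was replicate 1 for the 15 genes and replicate 3 for the markers. At st66 the lowest was replicate 3 for the 15 genes and replicate 2 for the markers. Collagens, which are matrix genes themselves, held a large part of the marker sum, with col1a1 averaging 692 CPM and col1a2 396 CPM at st61. Means of col1a1, col1a2 and dcn followed the order of the sum. The receptor gene pdgfrb did not, with means of 11.5 CPM in T3 livers, 5.83 at st54, 7.29 at st61 and 6.91 at st66. Means of pdgfra lay close together, at 4.38, 5.53, 6.20 and 4.23 CPM in the same order. Markers of the mesothelium and peritoneum, the lining around the organ, of which 11 of 12 were in the table and none was at 0 in all libraries, summed to 167 to 184 CPM in T3 livers, 128 to 194 CPM at st54, 647 to 1187 CPM at st61 and 534 to 887 CPM at st66. These sums were not carried by msln, upk3b or wt1. Of the list, msln was at 0 in every st61 library, and upk3b averaged 0.0176 CPM at st61 and 0.0893 CPM in T3 livers. The mean of wt1 was highest at st61, at 5.53 CPM, against 3.12 CPM in T3 livers, 2.55 CPM at st54 and 3.32 CPM at st66. In bulk tissue, more or fewer cells of a type and more or less RNA per cell cannot be told apart, and the part of all these cells in the matrix results was not tested.

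**Figure D5:**
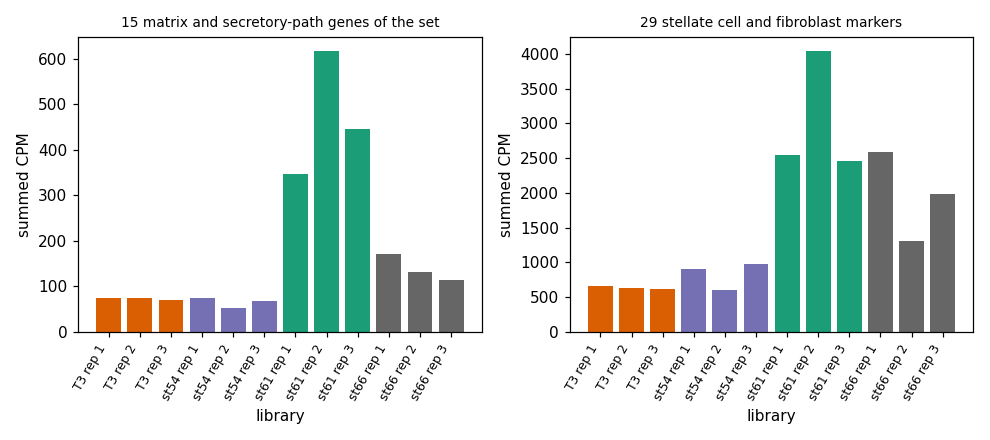
Summed CPM in each library (bars, linear axes from 0) of the 15 matrix and secretory-path members (left) and of 29 stellate cell and fibroblast markers (right), in T3, st54, st61 and st66. The members reach 347 to 617 CPM at st61 and 113 to 171 CPM at st66, and the markers 2462 to 4046 CPM at st61 and 1306 to 2587 CPM at st66. For the markers st66 replicate 1 is within the st61 range, while for the members the rule allows no such overlap.

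Of 4 members linked to Wnt signalling, axin2 was the only one with a call among T3, st54 and st66. Its product is an inhibitor of the pathway and its transcript a commonly used readout of it. It had 10.3, 11 and 9.65 CPM in T3 livers, 0.429, 0.578 and 1.28 CPM at st54, 11.8, 26.4 and 45.3 CPM at st61, and 8.13, 8.96 and 9.99 CPM at st66. T3 and st66 overlapped far above st54, and st61 replicate 1 was close to the highest T3 library. The gene rose 11.8-fold in T3 livers over st54 (edgeR adjusted p = 0.00218) and 14.6-fold at st66 over st54 (edgeR adjusted p = 0.00084). The dishevelled-binding gene dact1, apcdd1l and the repressor gene znf703 had st61 means of 6.88, 7.47 and 16.5 CPM and no call in any of the 3 comparisons. Over the list of 44 tested Wnt pathway genes, 6 were called higher and 1 lower in T3 over st54, and 11 higher and 2 lower at st61 over st54. The list includes axin2, which the rule chose in part for being higher at st61 than at st54. Of all genes tested, 9.47% were called higher and 7.55% lower in T3 over st54, and 10% and 8.85% at st61 over st54. The coreceptor gene lrp5, picked from the list after its values were seen, averaged 33.9 ± 2.0 CPM in T3 livers, 21.1 ± 2.01 CPM at st54, 105 ± 17.7 CPM at st61 and 75.2 ± 16.1 CPM at st66 (SD, n = 3 each).

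Receptors and ligands held the largest ratios of the set. The motilin receptor gene mlnr, known from gut movement in other vertebrates, had 0.0253, 0 and 0.0361 CPM in T3 livers, 0, 0 and 0.240 CPM at st54, 10.4, 21.4 and 30.5 CPM at st61, and 0.404, 0.378 and 0 CPM at st66. The libraries together held 2 reads in T3 livers, 3 at st54 and 11 at st66, against 1218 at st61, and the ratio of the st61 mean to the highest other mean was 79.7. A library's floor of 3 counts was 0.0759 to 0.108 CPM in T3 livers and 0.151 to 0.378 CPM at st66, so most of these values were at or near the limit of detection. Alone of the 76, mlnr did not pass the filter on low counts without the st61 libraries that chose it, so its call between st66 and T3, on 11 and 2 reads, is not read as a result. The ratio of summed CPM for st66 over T3 had a 95% exact counting interval of 3.28 to 139. The chemokine gene cxcl14 had 1.01, 1.17 and 1.01 CPM in T3 livers, 0.429, 0.170 and 0.721 CPM at st54, 30.1, 27.3 and 4.40 CPM at st61, and 1.16, 0.505 and 0.705 CPM at st66. Its st61 replicate 3 was the lowest of the 3, 6.84 times under replicate 1.

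The scavenger receptor gene stab1, a marker of the sinusoidal endothelium and some macrophages, was the highest of these members per kilobase. It had 244, 232 and 222 CPM in T3 livers, 193, 179 and 270 CPM at st54, 533, 882 and 581 CPM at st61, and 486, 187 and 70.5 CPM at st66. The st66 libraries spanned the whole range of T3 and st54, with replicate 1 near the lowest st61 library, and none of the 3 comparisons was called. The endothelium markers without stab1, of which 28 of 29 with it were in the table, summed to 2192 to 2290 CPM in T3 livers, 1028 to 1556 CPM at st54, 1810 to 2910 CPM at st61 and 488 to 1408 CPM at st66. Most of the T3 sum was stab2, the related sinusoidal receptor gene, which averaged 1332 CPM in T3 livers, 491 CPM at st54, 1248 CPM at st61 and 254 CPM at st66. Without stab1 and stab2, the other 26 markers summed to 887 to 927 CPM in T3 livers, 680 to 765 CPM at st54, 852 to 1431 CPM at st61 and 406 to 894 CPM at st66. Of the 28 markers tested, 1 was called higher and 0 lower in T3 over st54, with a median log2 fold change of -0.09, against -0.05 over all genes. Over all genes tested, 9.47% were called higher and 7.55% lower there. Of 28 macrophage markers, 18 were in the table. They summed to 2000 to 2072 CPM in T3 livers and 1840 to 2150 CPM at st54. At st61 their sums were 2680 to 3399 CPM, and at st66 they were 2055 to 3435 CPM. The part of the endothelium and of macrophages in the stab1 values was not tested.

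Of the other receptors and ligands, tmeff2, which encodes a membrane protein with follistatin-like domains, averaged 4.95 ± 0.344 CPM in T3 livers, 1.05 ± 0.143 CPM at st54, 14.4 ± 1.93 CPM at st61 and 5.49 ± 2.52 CPM at st66 (SD, n = 3 each), with calls of 3.87-fold for T3 over st54 (edgeR adjusted p = 0.0114) and 6.17-fold for st66 over st54 (edgeR adjusted p = 0.00239). The opsin gene tmtops went the other way with T3: it had 0.177, 0.126 and 0.108 CPM in T3 livers, 2.36, 0.987 and 1.52 CPM at st54, 4.11, 9.59 and 2.68 CPM at st61, and 1.46, 1.26 and 1.18 CPM at st66. T3 lay below all other groups, and st54 and st66 overlapped. It fell in T3 livers against st54 (log2 fold change -3.78 ± 0.54 SE, edgeR adjusted p = 0.00201) and was 12.2-fold higher at st66 than in T3 livers (edgeR adjusted p = 0.00139). The adhesion receptor gene adgrg4 and the ephrin gene efna5 averaged 8.17 and 7.30 CPM at st61 and had no call.

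The ubiquitin-linked members were asb11, rnf14.2, fbxl21p, pdzrn3 and mpnd. The most uniform of all at st61 was asb11, a substrate receptor of a ubiquitin ligase, with 2.28, 1.95 and 1.81 CPM in T3 livers, 0, 0 and 0.160 CPM at st54, 32.7, 32.6 and 33.3 CPM at st61, and 5.55, 8.45 and 6.70 CPM at st66. No groups overlapped. The st54 libraries held 2 reads in all, which gives ratios of summed CPM of 66.5 for T3 over st54 (95% exact counting interval 18.2 to 553) and 210 for st66 over st54 (57.6 to 1747). Both differences passed (edgeR adjusted p = 0.000816 for T3 over st54 and 2.28e-05 for st66 over st54), as did st66 over T3 at 4.84-fold (edgeR adjusted p = 0.00161). The F-box gene fbxl21p averaged 2.0 ± 0.184 CPM in T3 livers, 1.61 ± 0.459 CPM at st54, 15.8 ± 4.19 CPM at st61 and 2.30 ± 1.26 CPM at st66 (SD, n = 3 each). The ligase gene rnf14.2 was lower in T3 livers, at 3.84, 3.87 and 4.05 CPM, than at st54, with 4.33, 5.96 and 7.45 CPM (0.541-fold, edgeR adjusted p = 0.0141).

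The cytoskeleton, trafficking and other genes were 12. They were syne2, which links the nucleus to the cytoskeleton, mob2.2, arl11l.1, sh3bp4, tuba1a, fam171a1, rhpn2, tmem132e, the transcription factor gene elf5, eps8l1, the endophilin gene sh3gl2 and the exchange factor gene arhgef19. Their st61 means were between 7.42 CPM for arhgef19 and 123 CPM for syne2. At st66 over st54 arl11l.1 alone was called, and its st61 libraries held 133, 43.7 and 30.6 CPM. In T3 livers against st54 rhpn2 was called lower (0.568-fold, edgeR adjusted p = 0.045), and 4 of the 12 were called higher at st66 over T3. Of all genes tested, 8.23% were called higher at st66 over st54, 7.55% lower in T3 over st54 and 17.1% higher at st66 over T3. The rule's lower cap for T3 bears on the last of these, so the 4 are not read as a trait of the group. The tubulin gene tuba1a, with 24.9 ± 2.28 CPM at st61 (SD, n = 3), has close copies in tuba1b and tuba1c, so its count is uncertain.

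The 10 members without a gene symbol included LOC100487578, the highest of all in CPM not corrected for length, at 670, 659 and 636 CPM in T3 livers, 162, 284 and 116 CPM at st54, 4656, 4288 and 3907 CPM at st61, and 3004, 1347 and 765 CPM at st66. The st66 libraries spread widely and the groups did not overlap. It rose 2.83-fold in T3 livers over st54 (edgeR adjusted p = 0.0227) and 9.51-fold at st66 over st54 (edgeR adjusted p = 0.000406). A second, LOC101730404, lies 10.9 kb from it on chromosome 7 and averaged 1.55 ± 0.315 CPM in T3 livers, 0.716 ± 0.562 CPM at st54, 34.8 ± 16.6 CPM at st61 and 4.48 ± 3.55 CPM at st66 (SD, n = 3 each). LOC100488897 had 131, 37.5 and 12.8 CPM at st61 against 0.705 to 11.7 CPM at st66, so its lowest st61 library was close to the highest st66 library. LOC116412074 was at 175, 33.3 and 33.5 CPM at st61 and 22.1, 23.0 and 22.0 CPM at st66, against 0.630 to 1.01 CPM in T3 livers and 0.0681 to 0.172 CPM at st54. LOC101732836 was the single member lower at st66 than at st54, at 14.7, 16.9 and 17.2 CPM at st66 and 47.8, 70.1 and 23.2 CPM at st54 (edgeR adjusted p = 0.047); its gene model overlaps dock6 on the opposite strand, and whether counting used strand is not given in the sources used here. LOC100145285 and LOC116406464 overlap LOC100494435 and cep112 on the same strand, which makes their counts uncertain.

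In position, the members were spread over 10 chromosomes. Chromosome 7 held 14, or 1.54% of its genes with at least 5 CPM at st61, and the others held 0.34% to 0.862%. Among members less than 200 kb apart, fbxl21p, slc25a48 and cxcl14 follow each other on chromosome 3, with gaps of 40.3 kb and 126.5 kb. The gene il9, no member, lies between fbxl21p and slc25a48. On chromosome 7 clec11a and rcn3 lie 167.4 kb apart, and on chromosome 8 adgrg4 and tmtops lie 134.2 kb apart. Of these members on chromosome 3, slc25a48 was called in each comparison among T3, st54 and st66, and fbxl21p and cxcl14 in none.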

How the data were processed

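Liver RNA from 12 libraries (T3, st54, st61 and st66, 3 each) was analysed from the table of raw read counts per gene that the authors deposited. Per the submitters' processing notes, reads were trimmed with cutadapt 3.4 and aligned with STAR 2.7.8a; per the file headers, the table is a featureCounts output with gene positions and a gene length. Not given in the sources used here were the genome build, annotation, strand setting and treatment of reads that map to several genes. The start and end of all 76 genes equal those in the RefSeq gene table for UCB_Xtro_10.0. Of the deposited lines, 6, which hold 2 genes broken over several lines, were left out, and 26529 genes were used.

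CPM were computed from the counts and column sums. Values per kilobase used the deposited gene length. Counts were tested with edgeR 4.0.16 in R 4.3.3: TMM scaling, a filter on low counts by group, 4 group means with 1 shared estimate of the spread, robust quasi-likelihood tests and Benjamini-Hochberg adjustment over 15102 genes, with 8 residual degrees of freedom. The spread differed between groups, so the shared estimate is too large for T3 and too small for st66. A filter on all libraries kept all 76 members, of which 75 would pass without the st61 libraries. The test was checked on simulated data. Intervals and floors of 3 counts cover counting error only. Alternatives were DESeq2 1.42.0, RLE scaling, no filter, only the groups compared, T3 libraries summed, each library left out, a replicate block, and st66 replicate 1 as the only st66 library, the last chosen after seeing the data.

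Same-numbered replicates of different groups did not deviate together (correlations -0.11 to 0.158), and the labels tie the numbers to no shared animal or batch. Named genes were the 12 members highest at st61, the 12 highest in ratio among those of at least 10 CPM, up to 6 per direction with the smallest adjusted p in each comparison, up to 4 of each gene list, and 3 on either side of the threshold. Other genes, those without a symbol outside the top 12, and the grouping by role were added after their values were seen. The members and gene lists were chosen with earlier results of these data known.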

Additional observations from a re-analysis of the deposited data

How the results depend on the processing

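The number of genes that met the rule was 76; it was 128 with a ratio of at least 2, 22 with a ratio of at least 4 and 44 with a mean of at least 20 CPM, and between 64 and 122 when single libraries were left out. The count of members called higher at st66 over st54 was 29, against 17 with only the groups compared and 23 to 35 without single libraries. The 1 called lower became 0 with the replicate block, with only the groups compared and with st66 replicate 1 as the only st66 library, and 0 to 1 without single libraries. For T3 over st54 the 13 higher became 2 with the T3 libraries summed and 9 to 16 without single libraries; the 5 lower became 3 without the count filter, 3 with the replicate block, 0 with the T3 libraries summed and 1 to 7 without single libraries. For st66 over T3 the 30 higher became 1 with the T3 libraries summed and 15 to 38 without single libraries; the 0 lower became 1 with st66 replicate 1 as the only st66 library and 0 to 1 without single libraries. The shares over all genes tested moved too. Higher calls at st66 over st54 went to 2.09% of all genes with only the groups compared, and 4.65% to 15.2% without single libraries, beside 8.23%; the lower calls were 4.53%, 1.91% and 6.95% with the block, the groups compared and st66 replicate 1 alone, and 3.62% to 12.3% without single libraries, beside 5.48%. In T3 over st54 the higher calls were 0.394% with T3 summed and 3.51% to 16.6% without single libraries, beside 9.47%, and the lower calls were 3.94% without the count filter, 4.61% with the block and 1.34% to 16.5% without single libraries, beside 7.55%. With T3 summed, 0 of all 15745 genes tested were called lower. Higher calls at st66 over T3 were 0.699% with T3 summed and 8.51% to 23.8% without single libraries, beside 17.1%. The lower calls there were 5.36% with st66 replicate 1 alone and 6.42% to 23.2% without single libraries, beside 11.6%. These counts are not of a fixed set of genes, and fewer samples or fewer residual degrees of freedom are part of several alternatives. With the replicate block the other counts were 27 higher at st66 over st54, 13 higher in T3 over st54 and 27 higher at st66 over T3. DESeq2 called 31, 17 and 37 higher in the same order. Of 78 calls, 19 stayed past the threshold under every alternative run, and 0 reversed. The cause of the differences was not tested. Few reads limit the ratios of fn3k (1 read at st54 and 4 in T3 livers), of asb11 (2 reads at st54) and of mlnr in all groups outside st61.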

Other observations

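Without st66 replicate 1, 47 further genes met the rule, chosen here after their values were seen. Among them was cyp2a6.9, of a family of detoxifying cytochromes, with 3.90, 0.0315 and 1.19 CPM in T3 livers, 0.215, 0 and 8.41 CPM at st54, 1187, 1477 and 1083 CPM at st61, and 794, 421 and 351 CPM at st66. Its T3 and st54 libraries overlapped and were far below st66. Matrix genes were others, among them col5a1, col5a2, col6a2, col6a3, col18a1, fbn1, nid2 and fstl1. LOC100489060 was the highest of them in CPM not corrected for length, averaging 1700.2 ± 21.5 CPM in T3 livers, 1307 ± 253 CPM at st54, 5424 ± 923 CPM at st61 and 2459 ± 1275 CPM at st66 (SD, n = 3 each). The way these 47 were chosen makes st66 replicate 1 high in them, and that library was also the highest of its group in 72.5% of all genes of at least 5 CPM at st61. Its markers of stellate cells and fibroblasts summed to 2587 CPM, against 1306 and 1986 CPM in replicates 2 and 3, those of endothelium to 1894 CPM, against 773 and 558 CPM, and those of macrophages to 3435 CPM, against 2217 and 2055 CPM. Its mki67, a gene of dividing cells, stood at 140.3 CPM, against 12.7 and 11.4 CPM. The part of these cells and of cell division in the values was not tested.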
